A study of Mus musculus with 24 samples.

Results

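The genes described here are 32 genes of smooth muscle contraction and its pacemaker cells, measured by RNA sequencing in the mouse duodenum. They are the entries of the deposited tables that carry 1 of 32 fixed gene symbols, out of 25410 symbols in all, with entries that share a symbol summed. All 32 were found and all 32 passed the filter on low values that 20006 genes passed. The values are RPKM, reads scaled to the length of the gene model and to the size of the library.

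The mice were male Cyp27b1 null animals, which lack the enzyme that makes 1,25-dihydroxyvitamin D3 (1,25D), the hormonal form of vitamin D. From weaning at 3 weeks they ate a vitamin D-deficient diet with 0.47% calcium and 0.3% phosphorus (normal diet), or a rescue diet that differed in holding 2% calcium, 1.25% phosphorus and 20% lactose. At 8 weeks they were injected with vehicle or with 1,25D at 2 ng per g of body weight, and the duodenum was taken 6 h later. There were 4 groups of 6 libraries: normal diet with vehicle, normal diet with 1,25D, rescue diet with vehicle, and rescue diet with 1,25D. All 4 groups share the null genotype and the lack of dietary vitamin D.

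The wall of the duodenum holds circular and longitudinal muscle layers and a thin muscle of the mucosa. Contraction starts when calcium entering the cell activates myosin light chain kinase, myosin then pulls on actin filaments anchored at dense bodies, and a phosphatase ends the contraction. Interstitial cells of Cajal set the electrical rhythm, and acetylcholine acting on muscarinic receptors raises its force. Many smooth muscle genes carry CArG boxes, short A/T-rich elements bound by serum response factor together with the coactivator myocardin.

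CArG boxes were looked for in the 250 bases before the start of each gene, in RefSeq sequences of build GRCm38.p6, on both strands (a box reads the same way in either direction). A promoter sequence was matched for 28 of 32 genes. Actg2, Myh11, Tagln and Myocd were not among them. A strict CArG box stood in 3 of 28 promoters (10.7%), those of Myl9, Vcl and Ldb3, and in 1.62% of 27025 gene promoters of the same length. With at most 1 G or C allowed inside the A/T core, 6 of 28 held a match (21.4%), the other 3 being Acta2, Synm and Cacna1c, against 9.78% of all promoters. A match describes letters only, and no binding was measured. The 4 promoters below are shown because they carry the boxes of a core contractile actin and of a myosin light chain, which varied together, and of Vcl and Ldb3, which followed the other genes less closely. Capitals mark the boxes, which start 84 and 34 bases before the gene start in Acta2 (chr19:34255374-34255623, minus strand), 161 and 99 in Myl9 (chr2:156775214-156775463, plus strand), 35 in Ldb3 (chr14:34588682-34588931, minus strand) and 227 in Vcl (chr14:20929148-20929397, plus strand).
Acta2: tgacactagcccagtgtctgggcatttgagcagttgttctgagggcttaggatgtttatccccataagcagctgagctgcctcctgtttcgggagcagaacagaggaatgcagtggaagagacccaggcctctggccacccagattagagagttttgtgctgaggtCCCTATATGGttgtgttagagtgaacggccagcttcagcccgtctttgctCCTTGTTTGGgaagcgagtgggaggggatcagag
Myl9: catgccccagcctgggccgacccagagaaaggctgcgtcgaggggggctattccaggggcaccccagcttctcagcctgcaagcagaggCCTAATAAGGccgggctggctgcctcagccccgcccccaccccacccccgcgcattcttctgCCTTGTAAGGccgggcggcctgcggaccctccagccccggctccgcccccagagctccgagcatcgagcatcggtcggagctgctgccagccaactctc
Ldb3: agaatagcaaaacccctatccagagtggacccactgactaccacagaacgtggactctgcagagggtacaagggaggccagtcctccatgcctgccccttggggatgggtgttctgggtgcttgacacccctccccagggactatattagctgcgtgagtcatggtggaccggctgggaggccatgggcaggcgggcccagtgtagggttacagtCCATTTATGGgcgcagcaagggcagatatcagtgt
Vcl: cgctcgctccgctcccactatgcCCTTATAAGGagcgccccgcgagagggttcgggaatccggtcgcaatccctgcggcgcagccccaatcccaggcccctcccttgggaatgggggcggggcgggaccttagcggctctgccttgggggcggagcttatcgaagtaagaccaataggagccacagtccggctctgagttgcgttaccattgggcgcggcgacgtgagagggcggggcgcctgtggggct

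Series-wide, the summed RPKM of a library ran from 541395 to 697913, and the absolute depth is unknown. Relative depth, estimated from the steps between low values, ran from 0.606 in rescue 1,25D replicate 4 to 1.68 in normal vehicle replicate 6, where 1 is the scale of the joint estimate. Genes of the exocrine pancreas, which lies against the duodenum, took from 0.0078% to 17.4% of the summed RPKM, lowest in normal 1,25D replicate 6 and highest in normal vehicle replicate 6. Epithelial genes (Epcam, at 467 to 1028 RPKM, and Vil1, at 116 to 328) were detected in every library.

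The 32 genes took from 0.0596% (rescue vehicle replicate 5) to 0.281% (normal vehicle replicate 1) of the summed RPKM. Among the thick filament genes, smooth muscle myosin heavy chain Myh11 had a median of 59.1 RPKM over 24 libraries, but its 2 entries are nearly equal, as are those of Smtn, so that each sum is about double a single entry. The regulatory light chain Myl9 had a median of 57.9 RPKM and the kinase Mylk, which switches it on, 41.9 RPKM. Ppp1r12b, a targeting subunit of the opposing phosphatase, stood at 4.13 RPKM. Of the thin filament genes, the tropomyosin Tpm1 was the highest at 167 RPKM. It is also made outside muscle, and 95.4% of its summed value came from 1 of 10 entries.

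The vascular-type smooth muscle actin Acta2 had a median of 52.0 RPKM and the enteric actin Actg2 21.8 RPKM. Acta1 and Actc1 are close copies of these actins and can share reads with them, although Acta1 itself reached at most 1.10 RPKM. Tpm2 and Tagln, thin filament proteins, lay at 15.8 and 13.7 RPKM, and calponin Cnn1 at 10.1 RPKM. In the dense bodies, adhesions and intermediate filaments, Flna and Csrp1 lay at 38.7 and 37.8 RPKM, desmin (Des) at 27.0 RPKM, vinculin (Vcl) at 21.0 RPKM and the actin crosslinker Actn1 at 20.2 RPKM. The membrane and calcium genes were lower. The muscarinic receptor Chrm2 had 6.21 RPKM, the calcium store protein Casq2 1.86 RPKM, the calcium channel gene Cacna1c 1.29 RPKM and Kcnmb1, the beta subunit of the large potassium channel, 0.810 RPKM. The coactivator Myocd had 1.17 RPKM. Of the interstitial cell genes, the receptor tyrosine kinase Kit had 5.55 RPKM and the chloride channel Ano1 4.01 RPKM.

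Library spread was wide for most of these genes. The highest library exceeded the lowest by a median of 5.01-fold, from 2.13-fold for Tpm1 to 13.2-fold for Casq2. The SD of log2(RPKM + 0.5) within groups had a median of 0.58 over the 32 genes, against 0.35 over all genes tested, and 27 of 32 lay above that. Differences between the 4 group means made up a median of 9.99% of the variance of the 32 genes, and 13.3% for all genes. This share is not corrected for the number of groups, so it lies above 0 even where diet and injection have no effect. In tissue samples such as these, fewer muscle cells and less RNA per muscle cell cannot be told apart.

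**Figure D1:**
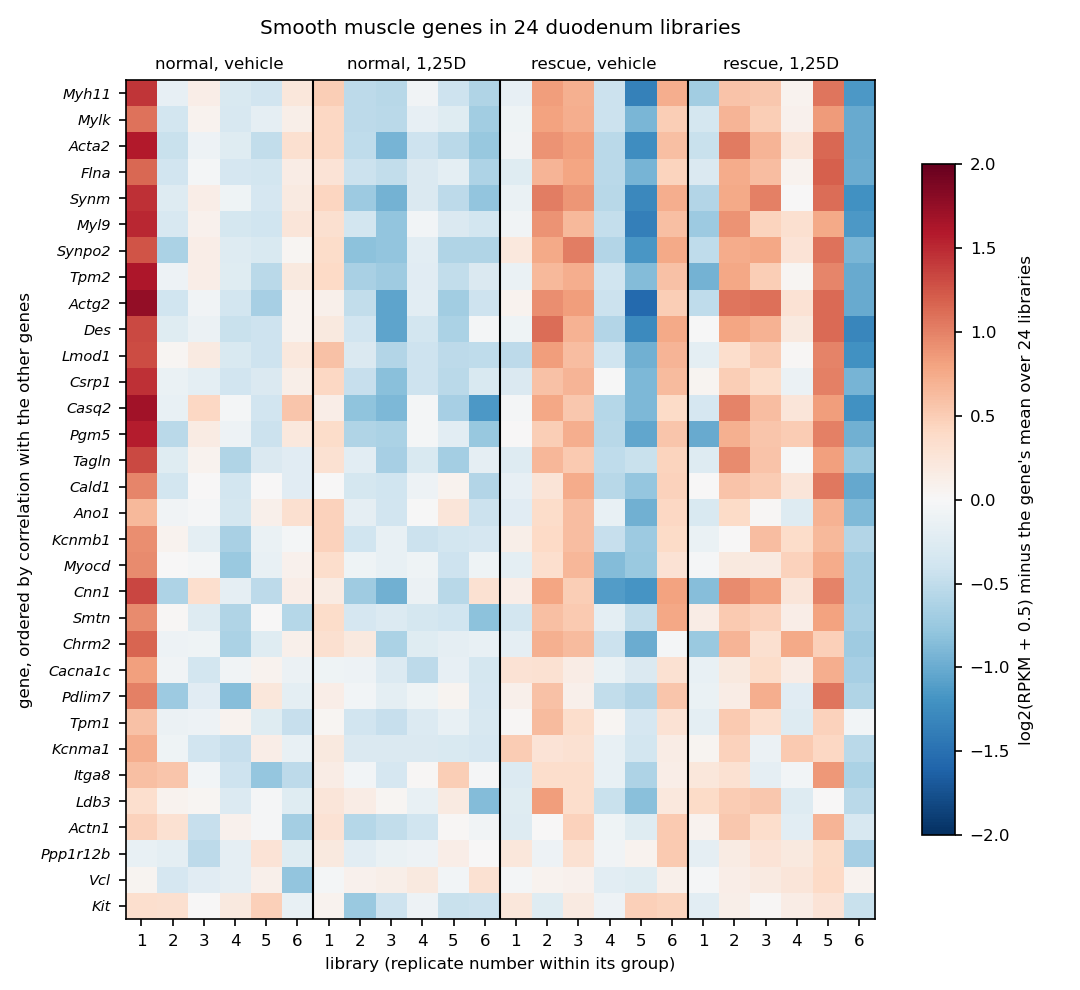
Heat map of the 32 genes (vertical axis, ordered by their correlation with the other genes) in 24 libraries (horizontal axis, 4 groups of 6). Colour is log2(RPKM + 0.5) minus the gene's mean over the 24 libraries, red above and blue below. Most genes of a column share a colour in several libraries. Among others, it is red in normal vehicle replicate 1 and rescue 1,25D replicate 5, and blue in rescue vehicle replicate 5 and rescue 1,25D replicate 6. Kit is an exception in rescue vehicle replicate 5, where it has its highest value (7.63 RPKM).

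The libraries, rather than single genes, stood apart. In normal vehicle replicate 1 all 32 genes lay above their group mean, by 1.00 on average on the log2 scale, and 21 of the 32 had their highest value there. Rescue 1,25D replicate 6 had 0 of 32 above the group mean and a mean deviation of -0.94. Rescue vehicle replicate 5 had 1 of 32, which was Kit, and a mean deviation of -0.84. The lowest values of 12 genes fell in the former library and of 11 in the latter. On the rescue diet both groups were divided as a whole. With vehicle, replicates 3 and 6 had 32 of 32 genes above the group mean and replicate 2 had 29. Replicate 4 of that group had 0 and replicate 1 had 9. With 1,25D, replicate 5 had 31 of 32 above (mean deviation 0.66), replicate 3 had 30 and replicate 2 had 29. Replicate 4 of the 1,25D group had 15 and replicate 1 had 2. Normal 1,25D replicate 1 had 31 of 32 above.

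Myh11 shows the size of this spread. It read 174 RPKM in normal vehicle replicate 1 and 49.1 to 75.2 RPKM in the other libraries of that group. In the normal 1,25D group it read 90.0 RPKM in replicate 1 and 42.1 to 61.0 RPKM in the others. With vehicle on the rescue diet it ran from 24.9 through a median of 81.1 to 115 RPKM, and with 1,25D from 28.6 through 80.2 to 136 RPKM. The rescue groups thus covered a range that held every normal-diet library except normal vehicle replicate 1. On the normal diet Actg2 ran from 15.0 (median 20.8) to 82.9 RPKM with vehicle and from 11.3 (median 17.4) to 25.7 RPKM with 1,25D. With the rescue diet it ran from 7.86 (median 29.6) to 46.4 RPKM with vehicle and from 11.7 (median 40.2) to 53.5 RPKM with 1,25D. All 4 groups overlapped for both genes.

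**Figure D2:**
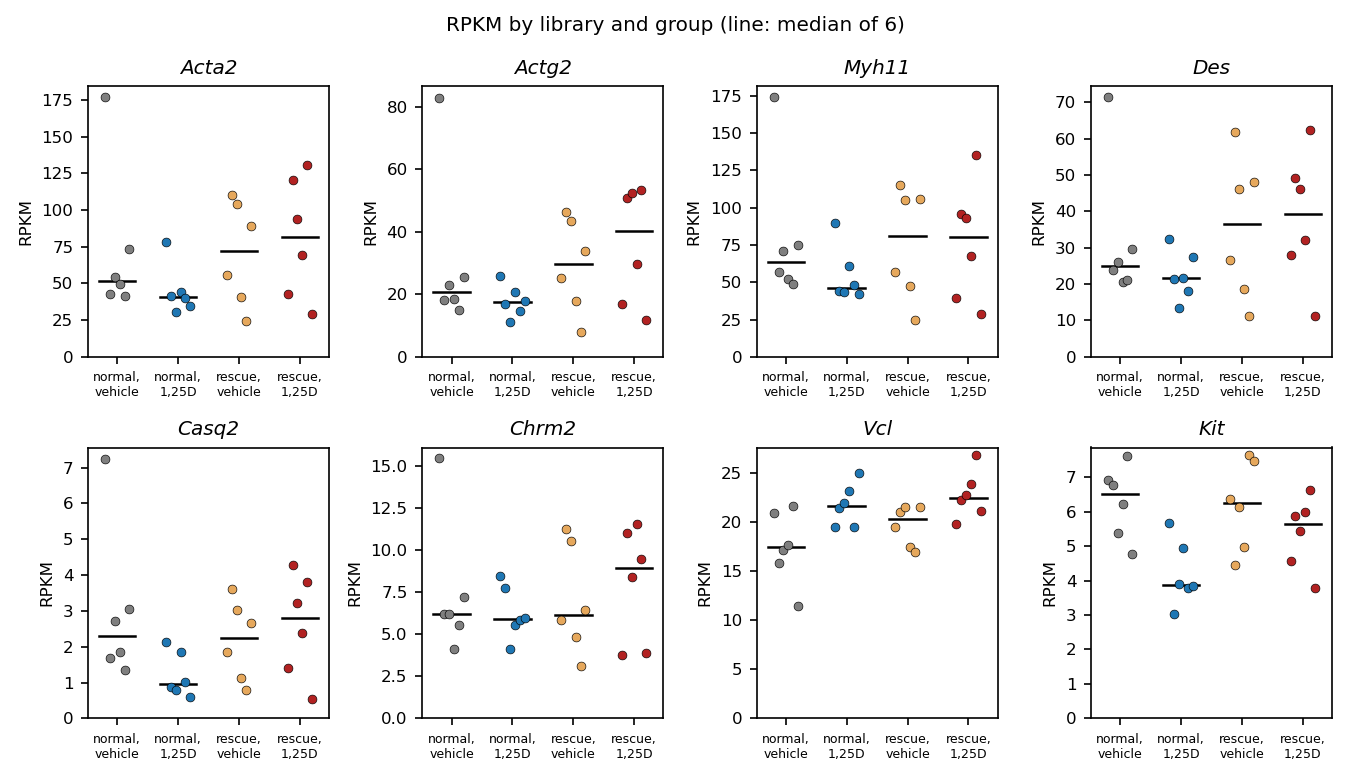
RPKM (vertical axis, from 0) of 8 genes in each library of the 4 groups (horizontal axis); points are libraries and the line is the median of 6. Acta2, Actg2, Myh11, Des, Casq2 and Chrm2 have 1 high library in the normal vehicle group, while Vcl and Kit do not, and all groups overlap.

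Within groups, the genes varied together. For each gene the deviation of log2(RPKM + 0.5) from its group mean was correlated with the mean deviation of the other 31 over 24 libraries. The points share each library's composition and scaling, so the values are descriptions. The correlation had a median of 0.92 (Spearman 0.89), with 17 genes at 0.9 or more and 25 at 0.8 or more. Of 19974 other genes, 1.35% reached 0.8, and their median was 0.09. Myh11 (0.98), Mylk (0.98), Acta2 (0.98), Flna (0.98) and the intermediate filament gene synemin (Synm, 0.98) followed the rest most closely. Without normal vehicle replicate 1 and rescue 1,25D replicate 6, the libraries farthest from the centre, the median was 0.90 and 23 genes stayed at 0.8 or more.

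The 7 genes under 0.8 were Kcnma1 (0.77), the integrin Itga8 (0.69), the Z-disc protein gene Ldb3 (0.66), Actn1 (0.66), Ppp1r12b (0.53), Vcl (0.43) and Kit (0.33). Vcl, which links integrin adhesions to actin in nearly all cell types, also had the smallest within-group SD of the 32 (0.20 on the log2 scale). Kit and Ano1, both used as markers of interstitial cells of Cajal, parted here: Ano1 correlated at 0.91 with the other genes. Kit correlated at 0.26 with Ano1, at 0.17 with Etv1 and at 0.16 with Gja1, other genes of these cells or their contacts. With Elovl6 and Edn3, also listed as markers of these cells, its correlations were -0.07 and -0.23. Mast cells also carry Kit. Of 10 mast cell genes, a list added after the values were seen, the 9 found summed to medians of 5.97 and 6.12 RPKM on the normal diet (vehicle, 1,25D) and of 7.68 and 11.6 RPKM on the rescue diet. Over all libraries the sum ran from 2.96 to 14.2 RPKM, and in the rescue 1,25D group from 9.16 to 14.2 RPKM. The part of mast cells in the values of Kit was not tested. Among the mast cell genes that passed the filter, Kit correlated at 0.19 with the protease gene Mcpt1, at 0.06 with Mcpt2 and at 0.02 with Cpa3. With Ms4a2 and Fcer1a the values were -0.28 and -0.44.

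**Figure D3:**
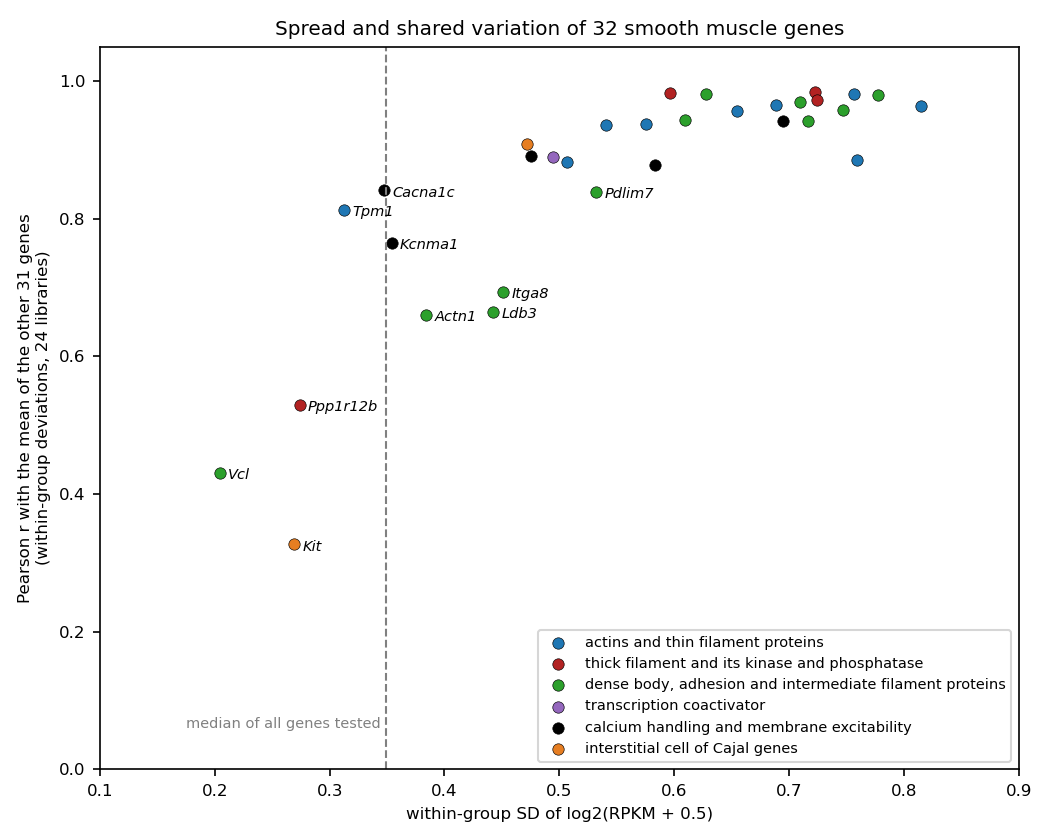
Within-group SD of log2(RPKM + 0.5) (horizontal axis) and Pearson correlation with the mean of the other 31 genes over 24 libraries (vertical axis) for each of the 32 genes, coloured by role. Genes with a larger SD lie higher, near 0.98 at the top, and Kit (0.33), Vcl (0.43) and Ppp1r12b (0.53) lie lowest; the dashed line is the median SD of all genes tested, 0.35.

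Some gene lists of other cells of the wall varied with the muscle genes across libraries, and others followed them weakly or ran the opposite way. The summed level of 7 pericyte genes correlated at 0.94 with the mean of the 32 genes and ran from 67.7 to 227 RPKM, led by Rgs5, which smooth muscle also expresses. The sum of 11 fibroblast genes correlated at 0.88 (99.6 to 299 RPKM), of 17 enteric neuron genes at 0.82 (19.6 to 87.4 RPKM) and of 10 endothelial genes at 0.61 (30.9 to 81.4 RPKM). For 6 interstitial cell genes outside the 32 the correlation was 0.74 (67.4 to 134 RPKM). Elovl6 (median 62.9 RPKM, against 89.5 RPKM for that sum) made up most of it and correlated at 0.38. The sum of 8 enteric glia genes correlated at -0.47 (23.4 to 94.4 RPKM), that of 6 mesothelium genes at 0.07 (3.04 to 9.05 RPKM), that of 10 epithelial genes at -0.20 and that of 21 pancreas genes at 0.19. Erbb3 (median 34.6 RPKM, against 45.8 RPKM for the sum) made up most of the glia sum and correlated at -0.55, while the glia gene S100b correlated at 0.81. Fibroblast sums on the normal diet were 119 to 273 RPKM with vehicle and 143 to 177 RPKM with 1,25D. On the rescue diet they were 99.6 to 242 RPKM and 106 to 299 RPKM. The part of these cells in the differences between groups was not tested. Skeletal muscle was nearly absent: of 9 marker genes 1, Ckm, passed the filter (0.344 to 5.22 RPKM), and Tnnt3 and Tnnc2 were at 0 in 13 and 17 libraries. The low sum of the 9 (1.15 to 5.96 RPKM) still correlated at 0.82 with the mean of the 32 genes, and Ckm at 0.90.

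The 10 genes outside the list whose within-group deviations followed the 32 genes most closely, among 15692 with a mean of 1 RPKM or more, were Atp2b4 (0.99), Dmpk (0.97), Thbs2 (0.96), Mrvi1 (0.96), Pdlim3 (0.96), Tspan2 (0.95), Slc24a3 (0.95), Tnxb (0.95), 9030425E11Rik (0.95) and Akap6 (0.94), each over 24 libraries. Atp2b4 encodes a plasma membrane calcium pump, Dmpk a kinase of muscle, Mrvi1 a regulator of calcium release and Pdlim3 an actin-associated protein. Atp2b4 ran from 2.42 to 16.5 RPKM and Pdlim3 from 3.74 to 31.6 RPKM.

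The first comparison asked how the 32 genes answered 1,25D on the normal diet. None of the 32 was called by limma at a Benjamini-Hochberg adjusted p under 0.05, against 1.84% of all genes tested, and 3 (Kit, Vcl and Casq2) had an unadjusted p under 0.05, against 12% of all genes. Groups did not overlap for 0 of 32 genes and for 2.22% of all genes. The median log2 difference of the 32 was -0.31, against 0.05 for all genes. Below 0 lay 28 of 32, while 58.8% of all genes lay above 0. The 32 genes varied together across libraries, so such counts of signs, here and below, are not counts of separate observations. Without normal vehicle replicate 1 the median was -0.10. Markers of other tissues were compared in the same way. Of 21 exocrine pancreas genes 20 were lower at an unadjusted p under 0.05, with a median log2 difference of -3.52 and 0 called by limma. Of 10 epithelial genes 7 lay above 0 (median 0.23), 3 had an unadjusted p under 0.05, and Cdh17, an intestinal cadherin, rose by 0.94 (SE 0.19, limma adjusted p 0.00758). Of 10 tested fibroblast genes 4 lay above 0 (median -0.13), while Fbln1, a matrix protein gene, rose by 1.25 (SE 0.18, limma adjusted p 0.000225). After rescaling without the pancreas genes the median of the 32 was -0.37, and the part of the other tissues in it was not tested.

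Kit had the smallest unadjusted p. It ran from 4.77 through a median of 6.50 to 7.62 RPKM with vehicle and from 3.01 through 3.88 to 5.67 RPKM with 1,25D. In the 1,25D group 4 libraries lay below the whole vehicle group, while replicates 1 and 4 overlapped it. The log2 difference was -0.54 (SE 0.16, 95% interval -0.87 to -0.21), 1.45-fold lower, with a limma adjusted p of 0.0903 (n = 6 and 6). Kit was called when libraries were rescaled: -0.59 with an adjusted p of 0.0182 after quantile normalization, -0.61 with 0.0242 after median-of-ratios scaling and -0.60 with 0.0371 after pancreas genes were taken out of the total. It was also called with limma's array weights (-0.63, adjusted p 0.0323), when normal vehicle replicate 6 was left out (-0.61, 0.0485) and when normal 1,25D replicate 1 was (-0.62, 0.0474). Over all alternatives its adjusted p ran from 0.0182 to 0.594, the latter with the higher of its 2 entries in place of their sum (-0.40). That higher entry alone made up 96.5% of the summed value of Kit.

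Vcl ran from 11.5 through 17.4 to 21.6 RPKM with vehicle and from 19.4 through 21.7 to 25.0 RPKM with 1,25D. In the vehicle group 4 libraries lay below every 1,25D library, and replicates 1 and 5 overlapped. Its log2 difference was 0.33 (SE 0.12), 1.26-fold higher, with a limma adjusted p of 0.208 (n = 6 and 6). Casq2, the calcium-binding protein of the internal store, ran from 1.35 through 2.29 to 7.23 RPKM with vehicle and from 0.587 through 0.951 to 2.14 RPKM with 1,25D. The low end of the vehicle group overlapped 1,25D replicates 1 and 4. Its log2 difference was -0.92 (SE 0.37) and the limma adjusted p 0.276, which ran from 0.0918 to 0.539 over the alternatives.

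The core contractile genes had wide intervals on the normal diet. Acta2 ran from 41.4 (median 52.0) to 177 RPKM with vehicle and from 30.4 (median 40.6) to 78.4 RPKM with 1,25D. Its log2 difference was -0.56 (95% interval -1.38 to 0.26, limma adjusted p 0.703). Des ran from 20.5 (median 24.9) to 71.5 RPKM with vehicle and from 13.4 (median 21.6) to 32.4 RPKM with 1,25D, with a log2 difference of -0.41. By role, 0 of 9 actin and thin filament genes lay above 0 (median -0.39), as did 1 of 4 thick filament genes (-0.37), 3 of 11 dense body, adhesion and intermediate filament genes (-0.32) and 0 of 5 membrane and calcium genes (-0.20). Synm (-0.66, adjusted p 0.620), Csrp1 (-0.46, 0.699) and Cacna1c (-0.29, 0.703) came next in the limma ranking.

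On the rescue diet 1,25D gave no called gene among the 32 by limma, against 0.145% of all genes, and 0 of 32 had an unadjusted p under 0.05, against 4.83%. Groups did not overlap for 0 of 32, against 0.365% of all genes. The median log2 difference was 0.10, against 0.06 for all genes. Above 0 lay 26 of 32, against 60.9% of all genes. After quantile normalization or median-of-ratios scaling 21 of 32 did. Without rescue vehicle replicate 5 the median was -0.08, without rescue 1,25D replicate 5 it was -0.04 and without rescue 1,25D replicate 6 it was 0.27. Vcl ran from 16.9 (median 20.3) to 21.5 RPKM with vehicle and from 19.7 (median 22.5) to 26.8 RPKM with 1,25D, with overlapping groups. Its log2 difference was 0.21 (SE 0.12, limma adjusted p 0.878). Kit ran from 4.44 (median 6.25) to 7.63 RPKM and from 3.79 (median 5.65) to 6.62 RPKM. Its log2 difference was -0.18 (95% interval -0.51 to 0.15, limma adjusted p 0.879). Acta2 ran from 24.5 (median 72.3) to 110.4 RPKM and from 29.1 (median 81.6) to 131 RPKM, and these ranges overlapped almost whole.

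**Figure D4:**
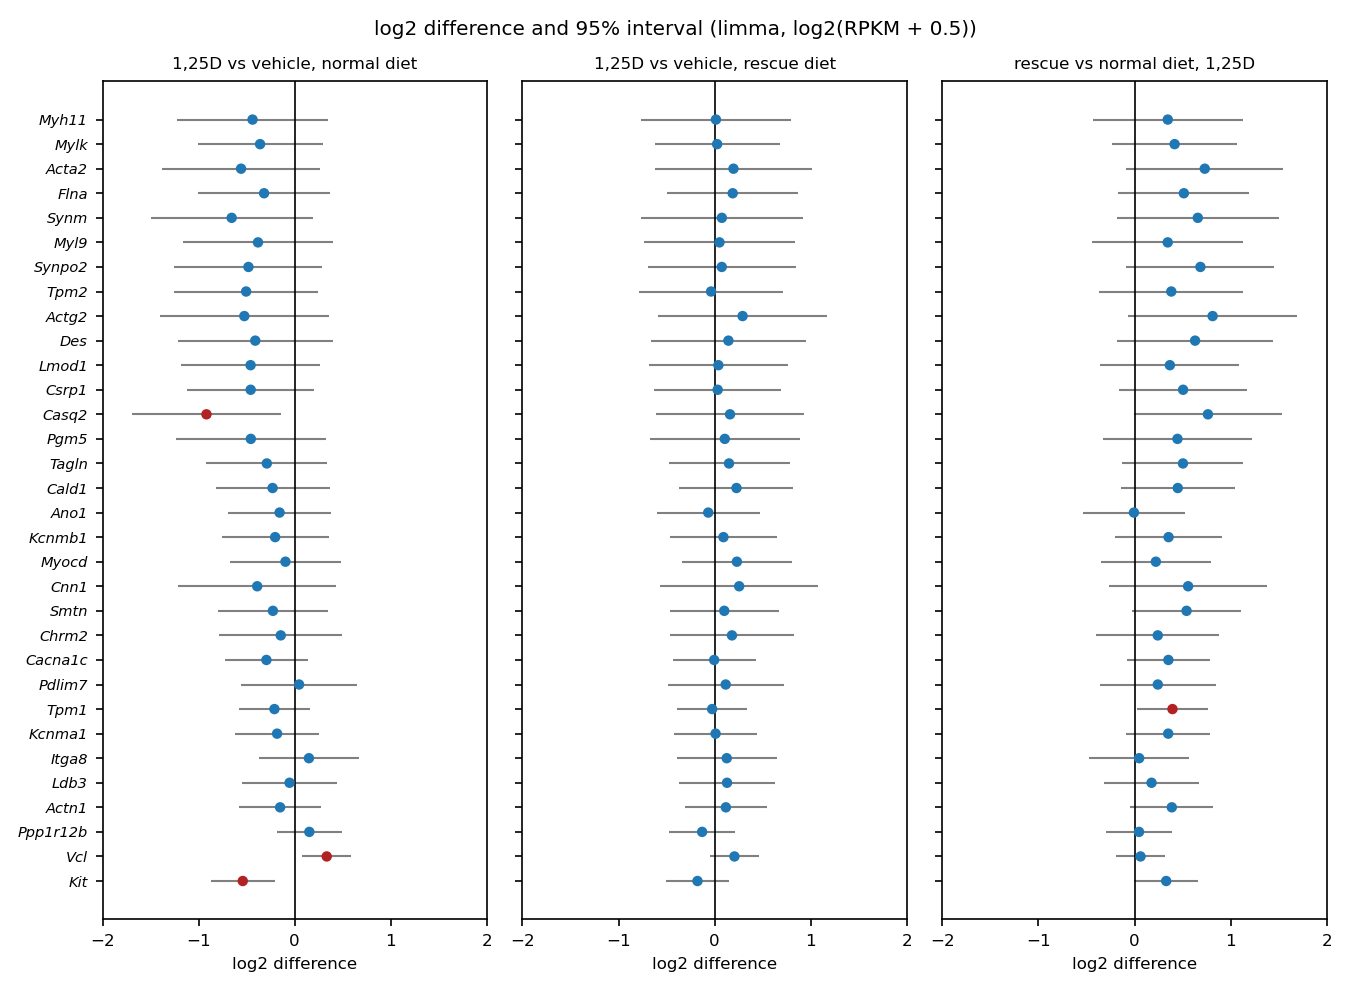
Log2 difference (points, horizontal axis) with its 95% interval (lines) from limma for each of the 32 genes (vertical axis) in 3 comparisons: 1,25D against vehicle on the normal diet, the same on the rescue diet, and rescue against normal diet under 1,25D. Red points have an unadjusted p under 0.05 (Kit, Vcl and Casq2 on the normal diet, Tpm1 between diets), and 0 of 32 pass after adjustment in each.

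The 2 diets were then compared under each injection. With vehicle, limma called 0 of 32 genes and 0% of all genes, and 0 of 32 had an unadjusted p under 0.05, against 7.18% of all genes. Groups did not overlap for 0 of 32, against 0.225%. Above 0 lay 16 of 32, against 68.9% of all genes. The median log2 difference was 0.00, against 0.10 for all genes. It was 0.22 without normal vehicle replicate 1 and -0.12 without rescue vehicle replicate 2. After quantile normalization, which moved the median of all genes to 0.00, 8 of 32 lay above 0 and the median was -0.16, and after median-of-ratios scaling 7 of 32 and -0.12. Ppp1r12b, the phosphatase subunit, came nearest: it ran from 2.80 (median 3.67) to 5.25 RPKM on the normal diet and from 3.95 (median 4.77) to 6.33 RPKM on the rescue diet. These groups overlapped, and the log2 difference was 0.33 (SE 0.17, limma adjusted p 0.709).

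With 1,25D, limma again called 0 of 32 between diets, against 0.01% of all genes, and 1 of 32 had an unadjusted p under 0.05, against 8.38%. Groups did not overlap for 0 of 32, against 0.815%. The median log2 difference was 0.39, against 0.12 for all genes. Above 0 lay 31 of 32, against 70.7% of all genes. After quantile normalization or median-of-ratios scaling, which moved the median of all genes to 0.01 and 0.04, 28 of 32 lay above 0. Without rescue 1,25D replicate 5 the median was 0.27, and without replicate 6 it was 0.59. Tpm1 ran from 128 (median 143) to 181 RPKM on the normal diet and from 146 (median 196) to 253 RPKM on the rescue diet. It was above the whole normal-diet group in 3 rescue libraries, replicates 2, 3 and 5. Its log2 difference was 0.40 (SE 0.18, limma adjusted p 0.554). The log2 difference of Actg2 was 0.81 (SE 0.43, limma adjusted p 0.638). That of Smtn, which encodes the actin-binding protein smoothelin, was 0.54 (SE 0.28, limma adjusted p 0.627), from the sum of its 2 nearly equal entries. The comparisons of diets and of injections share groups, so they are not separate observations.

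The difference between the 1,25D effects on the 2 diets was tested as an interaction. None of the 32 was called by limma, against 0.005% of all genes, and 0 of 32 had an unadjusted p under 0.05, against 6.85%. The median was 0.41, against 0.01 for all genes, and 29 of 32 lay above 0, against 51.7% of all genes. In the same test 9 of 10 epithelial genes lay below 0 (median -0.43, 5 with an unadjusted p under 0.05, such as Vil1 at -0.81), and 21 of 21 pancreas genes lay above 0 (median 3.17, 3 with an unadjusted p under 0.05). Their part in the values of the 32 genes was not tested. Without normal vehicle replicate 1 the median of the 32 was 0.18, and without rescue 1,25D replicate 6 it was 0.62. Casq2 had the largest value, 1.08 (95% interval -0.01 to 2.17, limma adjusted p 0.741). For Kit the interaction was 0.36 (95% interval -0.11 to 0.83), so the effects of 1,25D on Kit on each diet were not told apart.

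Averaged over both diets, 1,25D again gave 0 of 32 called genes by limma, against 1.28% of all genes. An unadjusted p under 0.05 was reached by 2 of 32, against 9.78% of all genes. The log2 difference of Kit was -0.36 (SE 0.11, limma adjusted p 0.163) and that of Vcl 0.27 (SE 0.09, limma adjusted p 0.176). Kit was called after quantile normalization (-0.40, adjusted p 0.0187) and median-of-ratios scaling (-0.41, adjusted p 0.0279). With the level of Myh11 in each library as a covariate, chosen after the data were seen, the log2 difference of Vcl was 0.29 (adjusted p 0.0888). On the normal diet alone, with that covariate, the values were -0.49 for Kit (adjusted p 0.141), 0.38 for Vcl (0.125) and -0.52 for Casq2 (0.0918). Outside the 32, Fbln1 rose by 1.03 (limma adjusted p 1.78e-05) and Cdh17 by 0.59 (limma adjusted p 0.0214, and 0.0638 after median-of-ratios scaling) with 1,25D over both diets. Averaged over both injections, rescue against normal diet gave 0 of 32 called by limma, 0% of all genes, and 1 of 32 (Tpm1, 0.30, adjusted p 0.450) had an unadjusted p under 0.05, against 9.5%. There 31 of 32 lay above 0 (median 0.21), against 76.7% of all genes (median 0.10), and 26 or 27 of 32 after quantile normalization or median-of-ratios scaling.

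A ratio of 2 genes within a library removes any factor that scales both alike. The ratio of Actg2 to Acta2, the enteric to the vascular-type actin, stayed between 0.321 and 0.558 over 24 libraries (median 0.414), while Actg2 itself varied 10.6-fold. On the normal diet it ran from 0.346 to 0.468 with vehicle and from 0.328 to 0.518 with 1,25D. With the rescue diet it ran from 0.321 to 0.453 and from 0.391 to 0.558. All groups overlapped. Acta2 and Actg2 can also share reads with each other, and the part of shared reads in this ratio was not tested. Of 16 exact permutation tests (4 ratios in 4 comparisons, two-sided, over every split of the libraries), 0 passed after Benjamini-Hochberg adjustment, and 0 had an unadjusted p under 0.05. The smallest was 0.117 for Chrm2 over Myh11, 1,25D against vehicle on the normal diet (adjusted 0.976, n = 6 and 6). Kit over Myh11 was far less constant, from 0.0386 to 0.306. Its highest value was in rescue vehicle replicate 5, which had the lowest Myh11 and the highest Kit of all libraries.

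**Figure D5:**
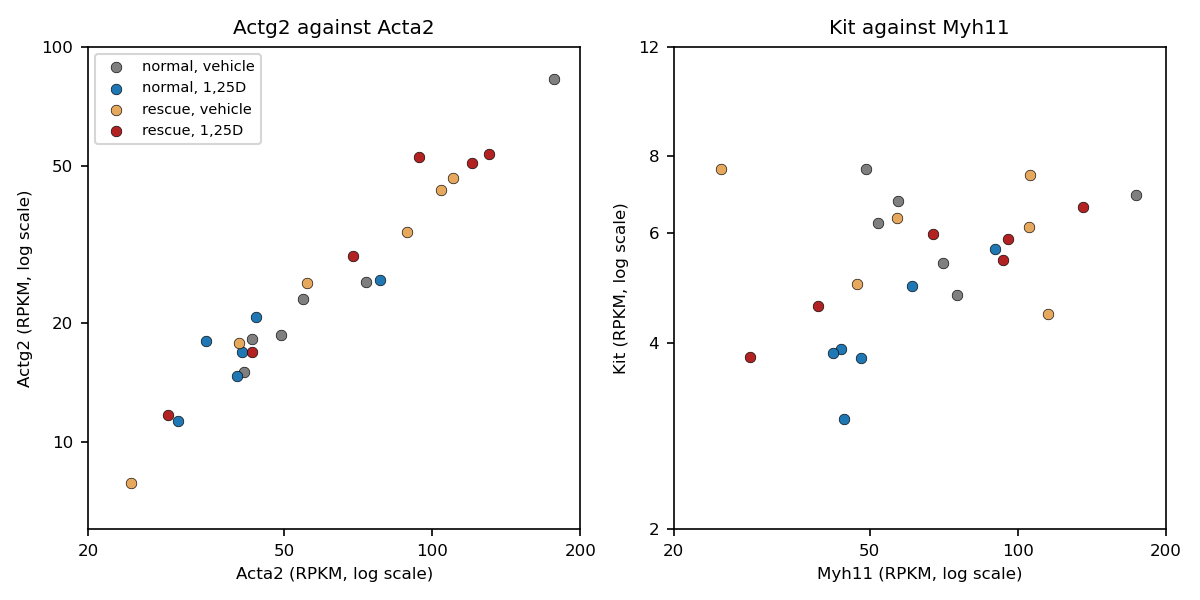
Left, Actg2 against Acta2 and right, Kit against Myh11, in RPKM on log axes; each point is 1 of 24 libraries, coloured by group. The actins lie along a line, with a ratio between 0.321 and 0.558, while Kit spans 3.01 to 7.63 RPKM with no such line.

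Of 64 other genes of smooth muscle regulation (receptors, G proteins, calcium pumps and further cytoskeletal genes, among others), 63 passed the filter. On the normal diet limma called 1 of them, the muscarinic receptor Chrm3, which fell by 0.73 on the log2 scale with 1,25D (SE 0.14, adjusted p 0.00512), against 1.84% of all genes. Chrm3 couples acetylcholine to calcium release and is also present in epithelium. On the rescue diet its log2 difference was -0.40 (limma adjusted p 0.786). Over both diets it fell by 0.57 (SE 0.10, limma adjusted p 0.00172), as the 1 called gene of 63, against 1.28% of all genes. For Chrm2, the other muscarinic receptor of gut muscle, the normal-diet values ran from 4.13 (median 6.21) to 15.5 RPKM with vehicle and from 4.13 (median 5.90) to 8.48 RPKM with 1,25D. The groups overlapped and its log2 difference was -0.14. On the normal diet the next genes were Pdlim5 (0.34, adjusted p 0.169) and the calcium release channel Itpr3 (0.35, adjusted p 0.286), both from limma. In the other pairwise comparisons, the interaction and diet over both injections 0 of 63 were called by limma, against 0% to 0.145% of all genes. There, at an unadjusted p under 0.05, were 1 of 63 for 1,25D on the rescue diet (4.83% of all genes) and 2 for diet with vehicle (7.18%). For diet with 1,25D there were 4 (8.38%), for the interaction 2 (6.85%) and for diet over both injections 5 (9.5%).

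Tagln and Myocd were not called by limma either. On the normal diet Tagln, an early marker of the smooth muscle lineage, ran from 10.4 (median 13.5) to 40.8 RPKM with vehicle and from 9.88 (median 13.3) to 20.0 RPKM with 1,25D. With the rescue diet it ran from 11.1 (median 17.7) to 25.6 RPKM and from 9.28 (median 19.9) to 31.3 RPKM. Myocd ran from 0.526 (median 1.19) to 2.81 RPKM and from 0.791 (median 1.11) to 1.68 RPKM on the normal diet. On the rescue diet it ran from 0.436 (median 1.29) to 2.20 RPKM and from 0.564 (median 1.45) to 2.37 RPKM. For both genes the 4 groups overlapped, and the correlation of Myocd with the mean of the other 31 genes was 0.89.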

How the data were processed

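RNA was measured in 24 duodenum libraries, 6 per group. Per the labels' protocols, ribosomal RNA was depleted and stranded libraries came from the ScriptSeq kit. For each library the authors deposited a table of RPKM values. The submitters' processing notes name TopHat and build mm9. The counting program, its gene models and all versions were not given in the sources used here. Values were used as deposited, with 30795 entries summed by symbol, so isoforms were not told apart. The absolute depth is unknown.

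Tests used limma 3.58.1 (R 4.3.3) with an intensity trend on log2(RPKM + 0.5), a scale that understates changes of low genes, for the 20006 genes that reached an RPKM of 0.5 in 6 or more libraries. All 24 libraries entered 1 fit with 20 residual degrees of freedom, and 7 comparisons were made with Benjamini-Hochberg adjustment over all genes. The fit was tested on simulated data. Ratios were compared with exact permutation tests coded in Python 3.11.15 with numpy 2.4.6, and scipy 1.17.1 gave the Spearman correlations. The labels do not say which library came from which mouse, so p-values measure the spread between libraries.

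The 32 genes and all lists were chosen with earlier results of these data known. Named genes are, in each comparison, the called genes and then up to 6 with the smallest unadjusted p, plus Acta2, Actg2, Myh11, Des, Tagln, Kit, Chrm2 and Myocd; outside the 32, the called genes of each list or at most 3 with the smallest p, and the 10 genes most similar to the 32. Alternatives covered the pseudocount, the filter, scaling, weights, a replicate block, the groups in the fit, entries per symbol and each library left out in turn.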

Additional observations from a re-analysis of the deposited data

Results flagged for a closer look

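Of 144 groups of 6 libraries examined (32 genes and 4 ratios in 4 groups), 33 held a library whose gap to its nearest neighbour was large for the group's range by Dixon's 95% limit. Chance gives about 1 in 20 groups if values are normally distributed, but the limit was applied to RPKM and plain ratios, not to log2 values. Every flagged library was the highest of its group. Genes that vary together are not separate observations. In normal vehicle replicate 1, 22 genes stood above the other libraries of the group, with Acta2 at 177 RPKM, Actg2 at 82.9 RPKM, Myh11 at 174 RPKM, Tagln at 40.8 RPKM, Cnn1 at 23.9 RPKM, Des at 71.5 RPKM, Myl9 at 173 RPKM, Mylk at 97.3 RPKM, Lmod1 at 9.22 RPKM, Synpo2 at 37.8 RPKM, Smtn at 8.07 RPKM, Tpm2 at 53.5 RPKM, Flna at 101 RPKM, Cald1 at 31.96 RPKM, Myocd at 2.81 RPKM, Pgm5 at 31.7 RPKM, Synm at 40.8 RPKM, Casq2 at 7.23 RPKM, Kcnmb1 at 2.15 RPKM, Cacna1c at 2.83 RPKM, Csrp1 at 115 RPKM and Chrm2 at 15.5 RPKM. In normal 1,25D replicate 1, 9 genes did so, with Acta2 at 78.4 RPKM, Lmod1 at 5.43 RPKM, Smtn at 5.24 RPKM, Tpm2 at 22.9 RPKM, Myocd at 1.68 RPKM, Synm at 19.6 RPKM, Kcnmb1 at 1.41 RPKM, Kcnma1 at 1.96 RPKM and Csrp1 at 55.0 RPKM. Of the ratios, Actg2 over Acta2 stood apart in rescue 1,25D replicate 3 at 0.558, and Kit over Myh11 in rescue vehicle replicate 5 at 0.306. The values of Myh11 and Smtn are sums of 2 nearly equal entries. The relative depth of normal vehicle replicate 1 was 1.11, inside the range of the other libraries.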

How the results depend on the processing

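The count of called genes among the 32 stayed at 0 in every comparison under every alternative except for Kit, which made it 1 for 1,25D on the normal diet (quantile normalization, median-of-ratios scaling, rescaling without pancreas genes, array weights, and from 0 to 1 when single libraries were left out) and 1 for 1,25D over both diets (quantile normalization and median-of-ratios scaling). Why these settings differ was not tested. Whether replicate numbers pair the libraries was not settled, because differently numbered pairs were not compared. Of 36 same-numbered pairs, 13 had a correlation of deviations over 0.1 (range -0.44 to 0.48, median 0.00). With a replicate block the count was 0 in all 7 comparisons (Kit on the normal diet -0.54, limma adjusted p 0.110). For 94 single-gene differences and 3336 values under an alternative, 3231 kept direction and side of the threshold, 8 (Kit, above) passed it, 1 fell short of it (Cdh17 for 1,25D over both diets with median-of-ratios scaling, 0.53, adjusted p 0.0638), and 96 changed sign, 0 of which was called; the cause was not tested.

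With Myh11 as a covariate (added after the data were seen), the sign changed for 1,25D on the normal diet in Des (0.017), Tagln (0.026), Chrm2 (0.16) and Myocd (0.17), for 1,25D over both diets in Acta2 (0.037), Actg2 (0.12), Des (0.074) and Tagln (0.083), for diet with vehicle in Acta2 (0.086) and Actg2 (0.11), for diet with 1,25D in Chrm2 (-0.00078), and for diet over both injections in Chrm2 (-0.0051) and Myocd (-0.013). With quantile normalization it changed for diet with vehicle in Des (-0.084) and Tagln (-0.10), for diet with 1,25D in Myocd (-0.028), for 1,25D over both diets in Chrm2 (-0.033) and Myocd (-0.071), and for diet over both injections in Chrm2 (-0.039) and Myocd (-0.10). With median-of-ratios scaling it changed for 1,25D on the rescue diet in Myh11 (-0.028), for diet with vehicle in Des (-0.052) and Tagln (-0.061), for 1,25D over both diets in Chrm2 (-0.040), and for diet over both injections in Chrm2 (-0.026) and Myocd (-0.025). Rescaling without pancreas genes changed Tagln for diet with vehicle (-0.00098) and Chrm2 for 1,25D over both diets (-0.0088). Array weights changed Acta2 (0.095), Actg2 (0.11) and Chrm2 (0.019), and a pseudocount of 1 changed Actg2 (0.00022), all for diet with vehicle. The highest entry per symbol changed Kit for diet with vehicle (0.11) and Myocd for diet over both injections (-0.060).

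When each library was left out in turn, differences that changed sign ranged as follows. For 1,25D on the normal diet, Chrm2 ranged from -0.28 to 0.080 and Myocd from -0.25 to 0.091. For 1,25D on the rescue diet, Myh11 ranged from -0.27 to 0.26, Actg2 from -0.031 to 0.56, Acta2 from -0.068 to 0.45, Des from -0.13 to 0.45, Chrm2 from -0.0075 to 0.36 and Ppp1r12b from -0.20 to 0.0094. For diet with vehicle, Acta2 ranged from -0.19 to 0.27, Actg2 from -0.18 to 0.34, Myh11 from -0.26 to 0.17, Chrm2 from -0.24 to 0.14, Myocd from -0.26 to 0.081, Des from -0.13 to 0.35, Tagln from -0.058 to 0.33 and Kit from -0.10 to 0.049. For 1,25D over both diets, Actg2 ranged from -0.28 to 0.054, Tagln from -0.14 to 0.062, Chrm2 from -0.076 to 0.13, Myocd from -0.010 to 0.16 and Des from -0.27 to 0.022. For diet over both injections, Myocd ranged from -0.018 to 0.15.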
